A study of Mus musculus with 399 samples.

Results

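The 24 RNA-seq libraries described here were the gonadal fat of C57BL/6J (B6) mice kept on standard chow, 12 from mice aged 20 weeks and 12 from mice aged 5 weeks, with 6 males and 6 females at each age. They were chosen by tissue, strain, diet and age alone, out of 399 libraries in the series, and sex entered the comparison as a covariate. B6 is an inbred strain that stays lean on chow. The series also holds liver, pancreas and soleus muscle, TALLYHO/Jng (TH) mice and high-fat feeding. Mice were weaned onto chow at 4 weeks, so the younger group had eaten it for 1 week and the older group for 16 weeks. The labels give no engineered allele and no drug for any of the 24 mice, and each library came from a separate mouse.

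Gonadal fat is the largest visceral depot of the mouse. It lies along the epididymis in males and around the ovary and uterus in females, and it grows steeply between weaning and adulthood. Adipocytes enlarge and new ones form from progenitors along the vessel wall, while the surrounding collagen and elastin network is laid down and remodelled. Bulk RNA holds all of these cells at once, so fewer cells of a type and less RNA per cell cannot be told apart in any value below.

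Each library had between 5939582 and 22172450 reads counted to genes (median 10327179 at 5 weeks and 6983165 at 20 weeks). Levels are CPM (read counts scaled to a common library size), scaled with TMM factors, and changes are log2 values of 20 minus 5 weeks with the standard error (SE) of the edgeR fit. A gene was called when its Benjamini-Hochberg adjusted p over all tested genes was under 0.05. The fat markers Adipoq (adiponectin) and Plin1 (perilipin, the lipid droplet coat) were present in every library, at 551 CPM or more and 579 CPM or more. The sex-linked genes Xist, Ddx3y and Uty matched the labelled sex of all 24.

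Reproductive tract RNA differed with age before any comparison was made. The summed level of 14 epididymal secretory genes ran from 125 to 10763 CPM in male fat at 5 weeks (median 1952) and from 0.147 to 4203 CPM at 20 weeks (median 8.86). Male 20-week replicate 4 alone was high among the older males. A list of 10 ovary, oviduct and uterus genes summed to 4.0 to 6.3 CPM in female 5-week replicates 3, 4 and 5, and to 58.2, 68.5 and 89.4 CPM in replicates 1, 2 and 6. Female 20-week replicate 5 stood at 75.3 CPM, against 8.7 CPM or less in the other females of that age. The same list summed to 9.2 to 129 CPM in males at 5 weeks (median 70.5) and to 2.8 to 90.5 CPM at 20 weeks (median 4.2), so it does not mark the female tract alone. Summed skeletal muscle markers reached 2300, 2891 and 706 CPM in female 5-week replicates 4, 5 and 6, and were 326 CPM or less in the other 21 libraries. The summed level of 16 mature adipocyte genes was lowest in female 5-week replicate 6, at 15298 CPM, and highest in male 20-week replicate 6, at 59070 CPM. The age effect over both sexes was therefore also fitted in 2 further ways: with both tract sums (log2) as covariates, and with the 14 libraries that stayed below 1000 CPM of the epididymal list and 50 CPM of the ovarian list. Those 14 held 5 of 6 males and 5 of 6 females at 20 weeks, but 3 females and 1 male at 5 weeks. Both alternatives were chosen after the data were seen, and the comparisons by sex and by strain were repeated in the first of these ways only.

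**Figure D1:**
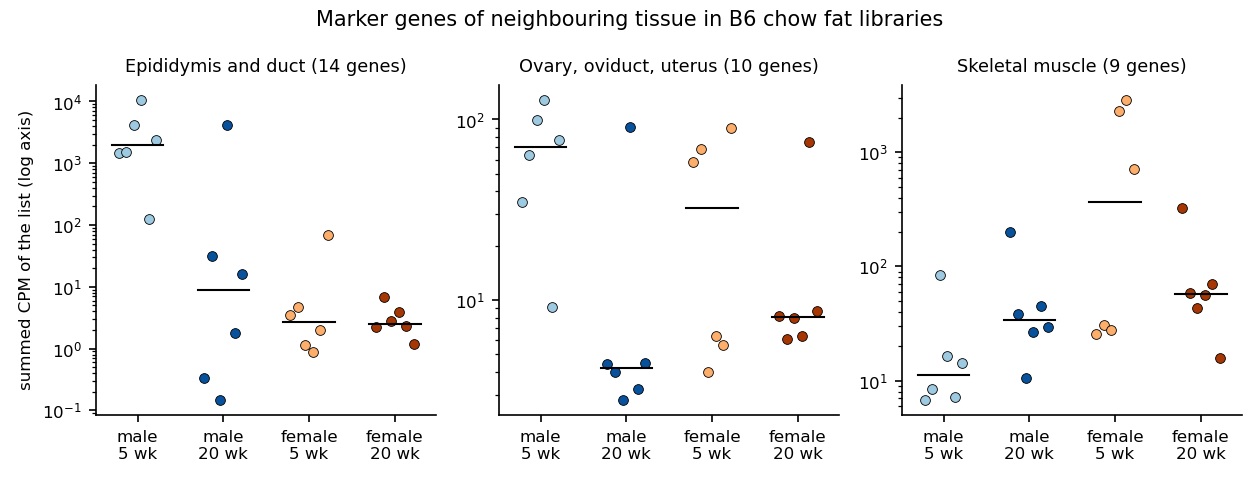
Summed CPM (log axis) of marker genes of neighbouring tissue in each library, by sex and age; points are libraries and bars are medians of 6. Epididymal RNA is high in male fat at 5 weeks (median 1952 CPM) and in 1 older male, and muscle RNA is high in 3 females at 5 weeks.

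Of 17838 genes tested, 929 were called higher at 20 weeks (5.21%) and 896 lower (5.02%). Of the 1825 genes, 632 changed at least 2-fold, 419 of them towards a lower level. The median change over all tested genes was -0.03. With the tract sums as covariates the counts were 434 higher and 782 lower (2.43% and 4.38%), and in the 14 libraries they were 504 higher and 671 lower (2.78% and 3.7%). The shares of these fits over all genes are the background for the list counts below. Leaving out female 20-week replicate 5 gave 1496 higher and 1685 lower, and leaving out male 20-week replicate 4 gave 1041 (5.88%) and 1501 (8.48%). A set of 420 genes was called in the main fit, in both tract fits and without male 20-week replicate 4, of which 195 were higher and 225 lower at 20 weeks.

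The steepest falls of the main fit included epididymal genes. By the rule used to name genes, the 12 largest falls were Spag11b, Muc5b, Lcn5, Adam28, Epp13, Spink11, Slc38a5, Defb30, Defb20, Spink5, Tspan1 and Spint5, a set that includes epididymal lipocalin (Lcn5) and beta-defensin (Defb20, Defb30) genes. Lcn5 ranged from 0.980 to 734 CPM in males at 5 weeks and from 0 to 2.70 CPM at 20 weeks. Its change was -7.58 ± 1.42 (SE), adjusted p = 0.0015, and with the tract sums as covariates it was -4.20 (adjusted p = 0.27). Male 20-week replicate 4, whose epididymal list summed to 4203 CPM, had at most 2.70 CPM of Lcn5. The part of tract tissue in these falls was not tested, and they are not described further.

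The single genes of largest change described next were taken from those called in all 4 fits. Many members of the gene lists further below were not called in all 4. The 12 largest rises among genes called in all 4 fits were Prr32, Rab9b, Sfrp5, Rprml, C6, Kcnj15, Prtn3, Nol3, Vgll3, Htra4, Dcst1 and Thbs1. Prr32, which encodes a proline-rich protein, had 0 to 2.28 CPM at 5 weeks (median 0.509) and 3.60 to 29.1 at 20 weeks (median 14.3). No 20-week library overlapped the 5-week range, and the change was 4.66 ± 0.50 (SE), adjusted p = 4.7e-06. Sfrp5, a secreted Wnt antagonist made by adipocytes, had 0.222 to 1.47 CPM at 5 weeks (median 0.964) and 1.03 to 33.7 at 20 weeks (median 9.30). Every older male lay above every younger one, whereas the female ages overlapped. The change was 3.54 ± 0.42 (SE), adjusted p = 1.7e-05. C6, a component of the membrane attack complex of complement, rose from 2.81 to 23.8 CPM in young males to 122 to 169 CPM in older ones. In females it went from 4.11 to 17.3 CPM to 17.5 to 64.02 CPM, and the age groups did not overlap within either sex (2.76 ± 0.31 (SE), adjusted p = 8.1e-06). Kcnj15, an inwardly rectifying potassium channel, behaved alike, with 1.30 to 77.5 CPM at 5 weeks (median 9.16) and 9.0 to 235 at 20 weeks (median 81.7) and no overlap within a sex (2.72 ± 0.38 (SE), adjusted p = 8.3e-05).

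Rab9b, a small GTPase of endosome to Golgi traffic, had 4.58 to 10.4 CPM in older males and at most 0.538 CPM in any female. Its rise was 4.23 in males (adjusted p = 8.1e-06), and the female value of 1.86 did not pass (adjusted p = 0.14). Vgll3, a cofactor of TEAD transcription factors reported to restrain adipocyte formation, had 3.56 to 18.8 CPM at 5 weeks (median 7.63) and 14.996 to 74.6 at 20 weeks (median 34.6). It rose by 2.00 ± 0.30 (SE, adjusted p = 2.1e-04). Thbs1, the matricellular protein thrombospondin 1, had 24.5 to 167 CPM at 5 weeks (median 91.5) and 121 to 1009 at 20 weeks (median 205), with female 20-week replicate 4 far above the rest. Its change was 1.82 ± 0.28 (SE), adjusted p = 2.7e-04. Prtn3 (proteinase 3, a neutrophil granule protease) and Htra4 (a serine protease) rose by 2.19 and 1.95. Nol3, an inhibitor of apoptosis, rose by 2.03, and Dcst1, a membrane protein of the DC-STAMP family, by 1.90. Rprml, a relative of the p53 target reprimo, was undetected in most young females and reached at most 1.78 CPM at 5 weeks and 9.37 CPM at 20 weeks (2.86 ± 0.37 (SE), adjusted p = 4.1e-05).

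Among the 12 largest falls called in all 4 fits were Frem2, H19, Mfap4, Pbk, Spag5, Eln, Mc5r and Adamts17. Frem2, a basement membrane protein best known from Fraser syndrome, had 3.79 to 27.6 CPM at 5 weeks (median 14.3) and 0.486 to 3.86 at 20 weeks (median 1.47). Its ages were apart in males, and in females 1 older library reached into the younger range (-3.05 ± 0.37 (SE), adjusted p = 2.0e-05). Mc5r, a melanocortin receptor found on adipocytes, had 5.03 to 19.2 CPM at 5 weeks (median 8.91) and 0.508 to 6.19 at 20 weeks (median 1.54). Its ages did not overlap within either sex (-2.13 ± 0.34 (SE), adjusted p = 3.7e-04). The metalloprotease Adamts17 changed by -2.09, with 3.03 CPM or more in every young male and 0.900 CPM or less in every older one. The remaining 4 were AY761185, a defensin-type gene, and the muscle genes Pgam2, Tnnt1 and Casq1. AY761185 was highest in males at 5 weeks and in male 20-week replicate 4, as the epididymal list was. Casq1 (the calcium store protein of skeletal muscle) stood at 66.8, 79.3 and 22.4 CPM in the 3 female libraries with muscle markers and at 11.1 CPM or less in the others. The part of muscle tissue in these 3 changes was not tested.

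**Figure D2:**
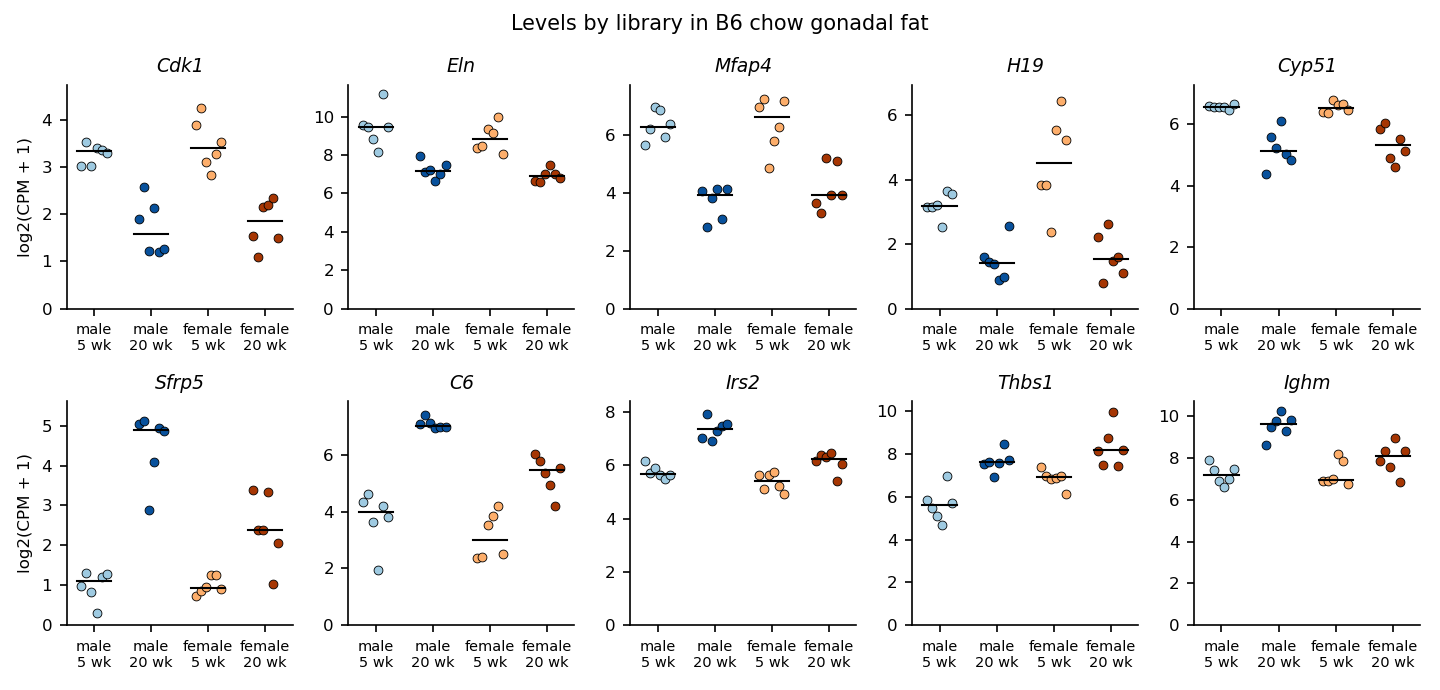
Level in each library, as log2(CPM + 1), of 10 genes by sex and age; points are libraries and bars are medians of 6. Cdk1, Eln and Cyp51 separate the ages completely in both sexes, Sfrp5, Irs2 and Ighm do so in males, and H19 reaches 86.4 CPM in 1 young female.

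Cell division genes fell as a group. The cell cycle advances when cyclin-dependent kinases such as Cdk1 are switched on by cyclins, after replication helicases of the Mcm family have opened the DNA. In adult fat these transcripts can come from dividing progenitors, endothelial cells and immune cells. Of the 32 genes of the list, all were tested, 30 were called lower at 20 weeks and none higher, against 5.02% of all genes called lower. All 32 had a change below 0, and their median was -1.46 against -0.03 over all genes. The 2 that did not pass were Pcna (-0.16, adjusted p = 0.2) and Mcm4 (-0.25, adjusted p = 0.096).

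The mitotic kinase Cdk1 had 6.15 to 18.1 CPM at 5 weeks (median 9.13) and 1.14 to 4.94 at 20 weeks (median 2.32). The ages did not overlap, and its change was -1.90 ± 0.24 (SE), adjusted p = 3.4e-05. Mki67, the proliferation marker Ki-67, had 7.58 to 122 CPM at 5 weeks (median 37.6) and 4.73 to 24.9 at 20 weeks (median 10.3). Its older libraries overlapped the younger ones in females only, and the change was -1.84 ± 0.37 (SE), adjusted p = 0.0025. Cenpf, a kinetochore protein, had the largest fall of the list (-2.55 ± 0.48 (SE), adjusted p = 0.0015). The anaphase activator Cdc20 changed by -1.92, cyclin Ccnb2 by -2.30, the spindle factor Tpx2 by -1.95 and topoisomerase Top2a by -1.59. Genes of DNA replication had smaller changes: Mcm3 went from 16.6 to 11.3 CPM in the median without overlap (-0.62 ± 0.09 (SE), adjusted p = 2.4e-04), Mcm2 changed by -0.69 and thymidine kinase Tk1 by -0.50. Pbk, a mitotic kinase, and Spag5, a spindle protein, were outside the list and changed by -2.38 and -2.36. Male 5-week replicate 2 stood apart for both (11.3 and 22.5 CPM), and its testis germ cell list summed to 440.6 CPM. When single libraries were left out, the 2 changes ran from -2.68 to -2.18 and from -2.50 to -2.03.

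Members were called lower in both sexes. In males 25 of the 32 were called lower (5.22% of all genes), with a median of -1.45, and in females 11 (0.79% of all genes), with a median of -1.48. Among young females the summed level of the list was highest in replicates 1, 2 and 6, which had high ovarian list sums. It was 634.7, 632.8 and 362.5 CPM there, and 216.7 to 319.8 CPM in replicates 3, 4 and 5. Older females had 124.8 to 245.2 CPM, which overlapped replicates 3 and 4. The part of tract tissue in the high female sums was not tested. In the edgeR test of the male minus the female change no member was called, 0 of 32 had an unadjusted p under 0.05, and DESeq2 called none. The covariate fit called 25 lower with a median of -1.23, and in the 14 libraries 9 were, with a median of -1.02. In that smaller fit Cdk1 (-1.77, adjusted p = 0.0064), Mcm3 (-0.76) and Tpx2 (-1.51) were still called, and Bub1b stood at 0.03.

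The promoters of 3 members that fell together are shown, chosen among those whose windows hold both of 2 short elements. Mitotic genes of mammals are known to share these 2 elements before their start. One is the CCAAT box (CCAAT), bound by NF-Y, and the other is the cell cycle genes homology region, or CHR (TTTGAA), bound by the DREAM and MuvB complexes. Each line gives the 250 bases before the RefSeq start on the minus strand of GRCm38.p6, with both elements on either strand in capitals.
Cdk1, chr10:69352913-69353162: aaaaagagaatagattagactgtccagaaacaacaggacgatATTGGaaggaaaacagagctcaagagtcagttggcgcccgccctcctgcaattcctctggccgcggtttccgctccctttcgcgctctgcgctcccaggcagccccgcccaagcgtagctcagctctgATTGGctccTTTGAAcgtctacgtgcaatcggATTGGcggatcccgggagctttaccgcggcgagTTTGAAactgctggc
Top2a, chr11:99024190-99024439: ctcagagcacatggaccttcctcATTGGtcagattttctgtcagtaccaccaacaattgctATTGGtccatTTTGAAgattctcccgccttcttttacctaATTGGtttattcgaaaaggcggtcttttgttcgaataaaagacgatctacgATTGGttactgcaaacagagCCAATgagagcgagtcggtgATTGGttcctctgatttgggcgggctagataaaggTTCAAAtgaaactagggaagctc
Cdc20, chr4:118437344-118437593: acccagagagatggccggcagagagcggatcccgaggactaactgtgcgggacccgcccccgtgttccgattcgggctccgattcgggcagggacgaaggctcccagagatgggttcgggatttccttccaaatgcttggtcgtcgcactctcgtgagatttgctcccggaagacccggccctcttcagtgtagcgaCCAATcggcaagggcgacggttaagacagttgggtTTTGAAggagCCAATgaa

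RefSeq windows were found for 24 of the 32 members, 25 windows in all. CCAAT occurred in 21 of the 25 (84%) and in 33.8% of all 32851 windows, TTTGAA in 9 (36%) and in 16.0%. Both occurred in 9 (36%), against 5.55% of all windows. These letters describe the windows and show no binding.

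**Figure D3:**
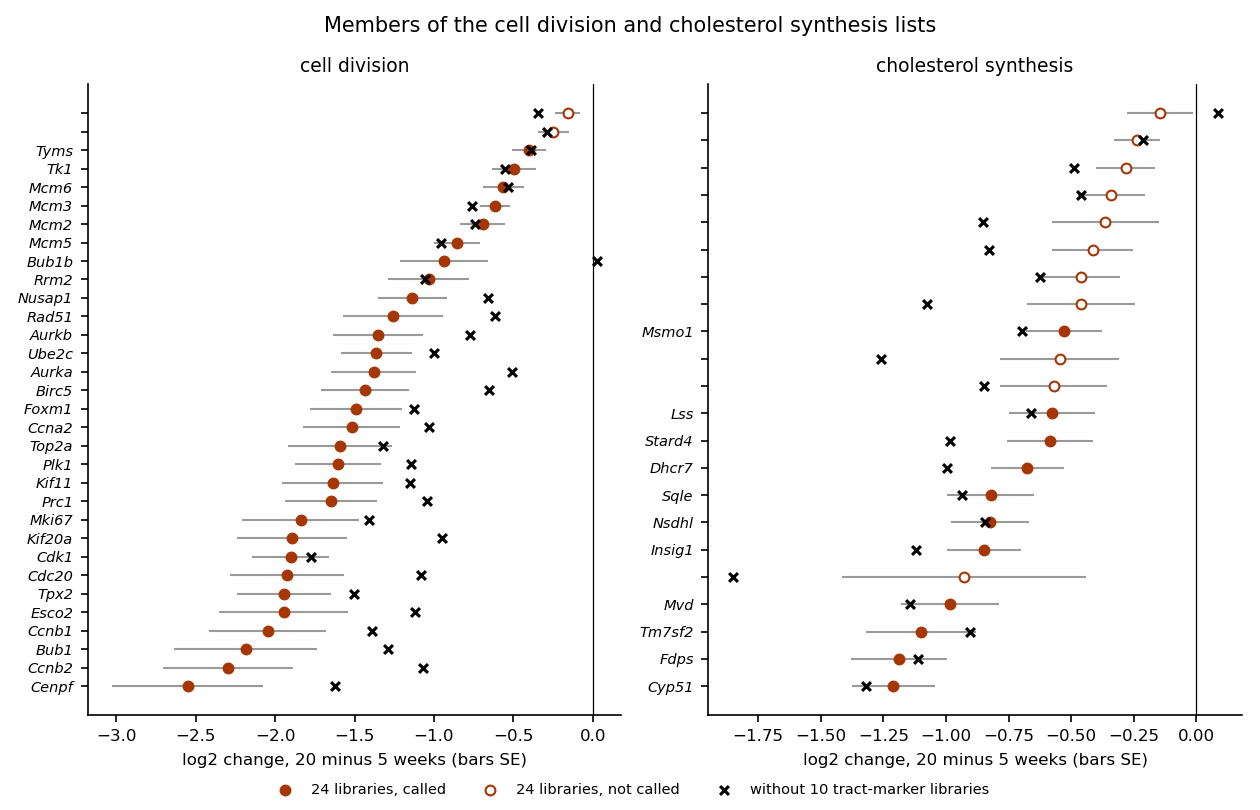
Log2 change from 5 to 20 weeks of members of the cell division list (32 drawn) and the cholesterol synthesis list (22 of 24 drawn), with names for those called; circles with SE bars are the fit of 24 libraries, filled where called, and crosses are the 14 libraries without tract markers. All circles lie below 0; the crosses move towards 0 for most mitotic genes and away from it for most cholesterol genes.

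Some genes of the extracellular matrix fell, elastin and fibrillar collagens among them. Elastin (Eln), the core of elastic fibres, had 263 to 2319.7 CPM at 5 weeks (median 614) and 95.9 to 244.7 at 20 weeks (median 130.1). The ages did not overlap, and the change was -2.29 ± 0.28 (SE), adjusted p = 2.0e-05. In the 14 libraries it was -3.04 (adjusted p = 1.4e-05). The highest Eln level was that of male 5-week replicate 5, the only young male among these 14. Mfap4, a microfibril protein that binds elastin, had 27.9 to 150.1 CPM at 5 weeks (median 78.6) and 6.07 to 35.4 at 20 weeks (median 14.3) and changed by -2.52 ± 0.29 (SE, adjusted p = 1.2e-05). Its ages were apart in males and overlapped in females. Of the 24 elastic fibre and matricellular genes tested, 4 were called lower (Mfap4, Eln, Mfap2 and Sparc) and 2 higher (Thbs1 and the small proteoglycan Dcn), against 5.02% and 5.21% of all genes. Dcn (0.57) was called in neither tract fit and in 15 of the 24 fits that each left out 1 library. The list's median was -0.19. Sparc, a collagen-binding protein abundant in growing fat, had 1743 to 4032 CPM at 5 weeks (median 3046) and 1446 to 2755 at 20 weeks (median 2128) and changed by -0.55 (adjusted p = 0.025).

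All 16 fibrillar and associated collagen genes had a change below 0, with a median of -0.64, and 6 were called lower (5.02% of all genes were). Col1a1, which encodes the major chain of type I collagen, had 994 to 1818 CPM in young males and 277 to 595 CPM in older males, without overlap. In older females it ranged from 255.9 to 2012 CPM, which spans the young range. Its change was -1.17 ± 0.29 (SE), adjusted p = 0.012. Col3a1 changed by -0.88, Col5a3 by -0.97, Col6a1 by -0.63 and Col5a1 by -0.64. Without female 20-week replicate 5 the count was 10. In the 14 libraries Col5a3 (-1.43, adjusted p = 5.4e-04) was called and Col1a1 (-1.07, adjusted p = 0.1) was not.

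Basement membrane genes were called lower in 3 of 15 (Agrn, Col4a1 and Col4a2), against 5.02% of all genes, with a median of -0.32. Col4a1, the main chain of the sheet around each adipocyte and capillary, had 966 to 3239.8 CPM at 5 weeks (median 2413) and 1001 to 1958 at 20 weeks (median 1382). The groups overlapped and the change was -0.69 ± 0.18 (SE), adjusted p = 0.015. The covariate fit called 9 of the 15 lower and the 14 libraries 6, where Col4a1 stood at -1.16 (adjusted p = 2.2e-04). Of 17 genes of collagen processing, 4 were called lower, against the same 5.02% of all genes, with a median of -0.20. That count was 2 without any 1 of female 20-week replicates 1 and 6 or male 20-week replicates 2 and 5.

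The imprinted growth genes gave both directions. Imprinted genes are read from 1 parental copy, and a network of them is active in growing mouse organs and is shut down after weaning. Of 21 tested, 6 were called lower and 3 higher (5.02% and 5.21% of all genes were), with a median of -0.06. H19, the maternally expressed noncoding RNA next to Igf2, had 4.17 to 86.4 CPM at 5 weeks (median 11.04) and 0.733 to 5.22 at 20 weeks (median 1.76). Its change was -2.97 ± 0.46 (SE), adjusted p = 2.4e-04, and the highest young female exceeded every other library. The maternally expressed transcripts of the Dlk1 to Meg3 cluster fell together. Meg3 had 85.5 to 271 CPM at 5 weeks (median 134) and 41.9 to 150.3 at 20 weeks (median 81.4) (-0.81 ± 0.14 (SE), adjusted p = 5.8e-04). Rian changed by -0.95 and Mirg by -1.37. Dlk1 (preadipocyte factor 1), a paternally expressed inhibitor of adipocyte formation in the same cluster, had 1.54 to 5.62 CPM at 5 weeks (median 3.24) and 0.169 to 3.0 at 20 weeks (median 1.10) (-1.56 ± 0.33 (SE), adjusted p = 0.0036). Igf2 was at 2.74 CPM or less in every library, and its change of -0.64 did not pass (adjusted p = 0.13), though it was called lower in both tract fits (-1.03 and -1.16). Nnat, a paternally expressed membrane protein of the endoplasmic reticulum, went the other way, with 25.3 to 323 CPM at 5 weeks (median 137) and 96.3 to 1039.7 at 20 weeks (median 480.0) (2.03 ± 0.42 (SE), adjusted p = 0.003). The falls of H19, Meg3, Rian, Mirg and Dlk1 were also called in both tract fits, and that of Zim1, the other called member, in neither. The rise of Nnat was called with the covariates (1.59, adjusted p = 0.0018) and missed the threshold in the 14 libraries (1.42, adjusted p = 0.054).

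In the growth hormone and IGF list 1 of 20 genes was called higher and 3 lower, against 5.21% and 5.02% of all genes, so the higher count is at the background. Irs2, an adaptor that passes the insulin receptor signal on, had 43.9 to 70.5 CPM in young males and 119.8 to 241.9 CPM in older ones. In females it went from 29.2 to 53.5 CPM to 42.04 to 86.7 CPM, with overlap. Its change was 1.22 ± 0.16 (SE), adjusted p = 5.0e-05, and it was called in both sexes and in both tract fits. Igfbp3, the main IGF carrier, changed by -1.24 and was -0.53 in the 14 libraries (adjusted p = 0.37). The IGF-releasing proteases Pappa and Pappa2 changed by -1.11 and -1.31, and neither was called in the 14 libraries (adjusted p = 0.16 and 0.06). Igf1 (0.14, adjusted p = 0.68) and Ghr (0.60, adjusted p = 0.077) did not pass.

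Of 24 cholesterol synthesis genes 13 fell, against 5.02% of all genes. This pathway is driven by SREBP2, whose targets rise together when the endoplasmic reticulum runs short of sterol. All 24 members had a change below 0, with a median of -0.58. Cyp51, the lanosterol demethylase, had 81.9 to 110.2 CPM at 5 weeks (median 94.6) and 19.8 to 67.4 at 20 weeks (median 35.5). No older library reached the younger range, and the change was -1.21 ± 0.16 (SE), adjusted p = 6.9e-05. Fdps, which makes farnesyl diphosphate, had 21.9 to 39.6 CPM at 5 weeks (median 31.01) and 6.27 to 26.6 at 20 weeks (median 12.6) (-1.19 ± 0.19 (SE), adjusted p = 4.0e-04). Insig1, a protein that helps to hold SREBP in the endoplasmic reticulum, changed by -0.85, and its female ages did not overlap. Mvd changed by -0.98, Nsdhl by -0.82 and squalene epoxidase (Sqle) by -0.82. Counts were 14 with the tract sums as covariates and 19 in the 14 libraries, where the median was -0.88. Within males 7 (5.22% of all genes) and within females 4 (0.79% of all genes) were called lower, and the edgeR test between the sexes called none (5 had an unadjusted p under 0.05, and DESeq2 called none).

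Of 24 genes of fatty acid and fat synthesis (lipogenic genes) 4 were called lower (Me1, Elovl6, Agpat2 and Acly), against 5.02% of all genes. Their list had a median of -0.32. Me1, malic enzyme, had 987 to 3824 CPM at 5 weeks (median 1814) and 339 to 2786 at 20 weeks (median 775) (-0.98 ± 0.27 (SE), adjusted p = 0.022). Elovl6, the elongase of palmitate, had 144 to 434 CPM in young males and 31.4 to 105 CPM in older ones, without overlap. In females it had 359 to 829.6 CPM and 107 to 1094 CPM, and the change was -1.15 ± 0.34 (SE), adjusted p = 0.031, called in 19 of the 24 fits that each left out 1 library. Fasn (-0.56, adjusted p = 0.19) and Scd1 (0.17, adjusted p = 0.72) did not pass. The lipogenic count was 1 without male 20-week replicate 1 or 5 and in the 14 libraries, and 10 with the tract sums as covariates. Leaving out any 1 of 10 other libraries gave 2.

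Angptl8, an insulin-responsive inhibitor of lipoprotein lipase, had 7.0 to 63.1 CPM at 5 weeks (median 29.9) and 1.69 to 35.04 at 20 weeks (median 6.56) and changed by -1.73 ± 0.37 (SE, adjusted p = 0.0042). Apln, the peptide apelin, changed by -1.34 (adjusted p = 0.0035). Both were called in both tract fits. Rbp4, Rarres2 and Adipoq were the 3 adipokines called higher, and none of them was called in either tract fit or without male 20-week replicate 6 or male 5-week replicate 3 or 4. Adipoq had 551 to 2006 CPM at 5 weeks (median 1134) and 892 to 2588 at 20 weeks (median 1936). Its change was 0.69 (adjusted p = 0.038), called in 11 of the 24 fits that each left out 1 library, and 0.31 with the covariates (adjusted p = 0.18). Lep (leptin) had 184 to 389.8 CPM in young males and 568 to 1161 CPM in older males, without overlap, a change of 1.62 (adjusted p = 0.0078). In females it was 172 to 620.2 CPM and 137 to 584 CPM (-0.18, adjusted p = 0.92), and the difference between the sexes did not pass (1.80, adjusted p = 0.17). Of 16 mature adipocyte genes, Cidec (0.88) and Adipoq were called higher and Gpd1 (-0.83) lower, with a median of 0.45. That median was 0.01 with the tract sums as covariates. Of 15 lipolysis genes 3 were called higher, against 5.21% of all genes, and in the tract fits 0 and 1 were. The 3 were the beta-3 adrenoceptor Adrb3 (0.89), the phosphodiesterase Pde3b (0.76) and the fatty acid receptor Ffar4 (0.96). Of 14 adipocyte progenitor genes Dlk1, Pdgfrb (-0.48), the PDGF receptor of mural cells and progenitors, and the Wnt antagonist Sfrp1 (-0.62) were called lower, and Pdgfrb was called in both tract fits. That count was 1 without any 1 of female 20-week replicates 1, 2 and 4, female 5-week replicate 5 or male 20-week replicates 2, 3 and 5.

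Of 12 thermogenic genes 3 fell, against 5.02% of all genes. Ucp1, the uncoupling protein of brown fat, was at 45.3 CPM or less in every library, with a median of 1.56 CPM at 5 weeks and 0.161 CPM at 20 weeks, and did not pass (adjusted p = 0.074). Cox8b, a cytochrome oxidase subunit of brown fat and muscle, had 4.39 to 35.8 CPM at 5 weeks (median 15.3) and 1.02 to 13.1 at 20 weeks (median 5.08) (-1.54 ± 0.27 (SE), adjusted p = 7.6e-04). In the 3 females with muscle markers it stood at 26.4, 26.4 and 35.3 CPM, and in female 5-week replicate 3, which had few, at 35.8 CPM. Kcnk3, a potassium channel of thermogenic adipocytes, changed by -1.08 and Cox7a1 by -1.22. These 3 were called lower, also in both tract fits, with a median of -0.71 for the list. Without female 20-week replicate 5 or male 20-week replicate 6 the count was 5. Neither tract fit had a term for muscle. The 14 libraries include female 5-week replicates 4 and 5, whose summed muscle markers were 2300 and 2891 CPM. How much muscle tissue added to the falls of Cox8b, Cox7a1 and Kcnk3 was not tested. No gene of fatty acid oxidation (20 tested), the tricarboxylic acid cycle (19), nuclear oxidative phosphorylation (41) or the mitochondrial genome (13) was called by edgeR in either direction, and their medians lay between -0.04 and 0.08. Unadjusted p-values under 0.05 were seen in 4, 1, 1 and 0 of them, and DESeq2 called 1 gene of fatty acid oxidation. In the covariate fit 3, 4, 3 and 0 of them were called lower.

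**Figure D4:**
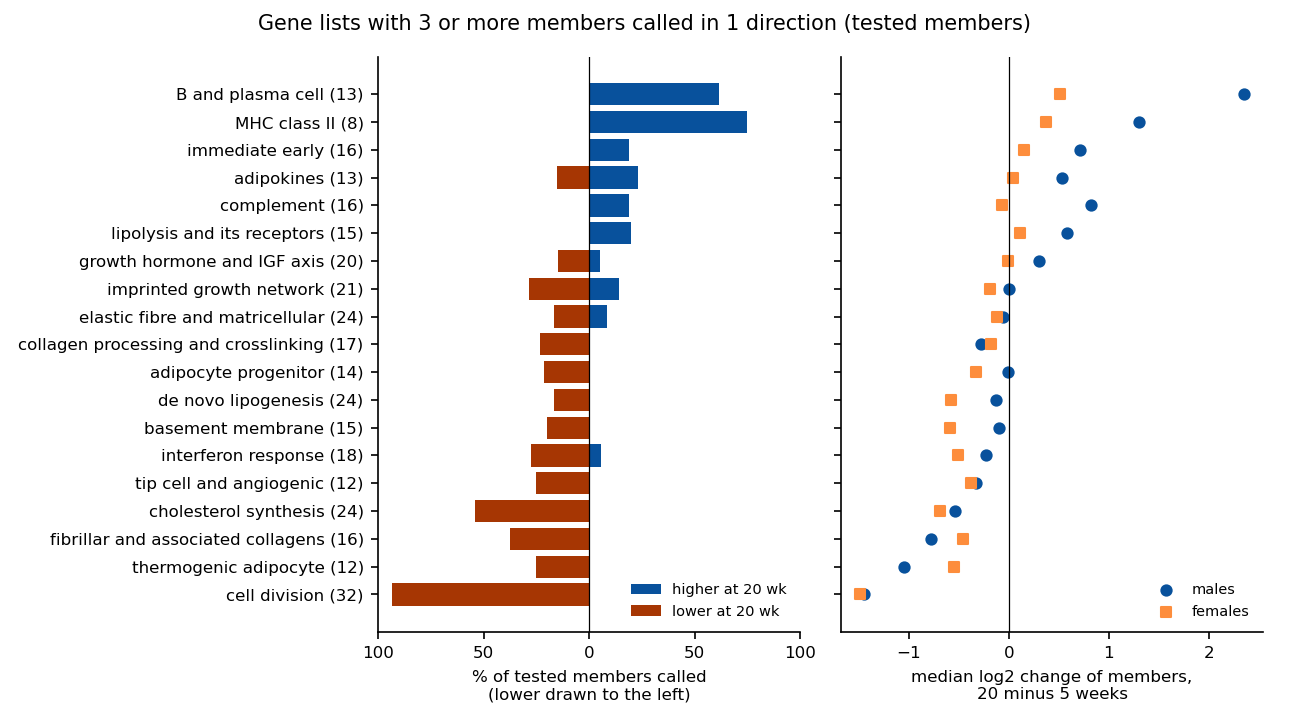
Left, share of tested members called higher or lower at 20 weeks for each gene list with at least 3 members called in 1 direction, with the number tested in brackets; right, the median log2 change of the members in males and in females. Cell division has the largest share (30 of 32 lower) with medians of -1.45 in males and -1.48 in females, and B cell genes have a male median of 2.35 and a female median of 0.51.

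B cell and MHC class II genes rose in the fit over both sexes and in males. Of 8 T cell genes tested 1 was called higher, with a median of 0.58. Of 4 natural killer genes tested edgeR and DESeq2 called none, 2 had an unadjusted p under 0.05, and all 4 were below 0 (median -0.72). That median was -0.28 with the tract sums as covariates and 0.12 in the 14 libraries. Of 13 B and plasma cell genes tested, 8 were called higher at 20 weeks (5.21% of all genes were), with a median of 1.46. In males 11 were (6.31% of all genes), and in females none (0.516% of all genes), where 3 had an unadjusted p under 0.05 and DESeq2 called none. The edgeR test between the sexes called no member, 8 had an unadjusted p under 0.05, and DESeq2 called 2. Ighm, the IgM heavy chain, had 98.7 to 243.9 CPM in young males and 399 to 1211 CPM in older ones. In females it had 108 to 295 CPM and 115 to 505 CPM, with overlap. The change was 2.35 in males (adjusted p = 2.9e-04) and 0.77 in females (adjusted p = 0.31). Cd79a, part of the B cell receptor, and Ms4a1 (CD20) rose by 1.56 and 1.70. The lymph node stroma list summed to 22.6 to 122 CPM in young males and 49.4 to 134 CPM in older males, and its part in the B cell values was not tested. Its marker Cxcl13, a chemokine that draws B cells, rose by 1.88 (adjusted p = 0.008) and was not called in the 14 libraries (1.47, adjusted p = 0.31). In the covariate fit 9 B cell genes were called higher, and in the 14 libraries edgeR called none and 1 had an unadjusted p under 0.05, with a median of 0.79.

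MHC class II genes were called higher in 6 of 8, against 5.21% of all genes, with a median of 0.84 (1.30 in males and 0.38 in females). H2-Aa had 77.97 to 171 CPM in young males and 228 to 439 CPM in older ones, without overlap (0.88 ± 0.20 (SE), adjusted p = 0.0059). The invariant chain Cd74 rose by 0.82. In each tract fit 1 of the 8 was called, and in the 14 libraries the median was 0.83 and all 8 had an unadjusted p under 0.05. Of 18 resident macrophage genes 1 was called, the chemokine receptor Cx3cr1, at -1.05 (adjusted p = 0.042, and under the threshold in 8 of the 24 fits that each left out 1 library). Among lipid-associated macrophage genes, Trem2, a lipid receptor, and Gpnmb, a lysosomal glycoprotein, were called higher at 1.19 and 0.91, while the fatty acid binding protein Fabp5, which adipocytes and endothelium also express, had 149 to 425 CPM at 5 weeks (median 303) and 47.4 to 240.6 at 20 weeks (median 102) and fell (-1.31 ± 0.22 (SE), adjusted p = 5.4e-04). Its ages did not overlap within either sex. Of 6 mast cell genes tested 2 were called higher, and in the 14 libraries edgeR called none and 1 had an unadjusted p under 0.05. The tryptase Tpsb2 rose by 1.54 (adjusted p = 0.0039) and stood there at 1.35 (adjusted p = 0.16).

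All 16 complement genes had a change above 0 in the fit over both sexes, and 3 were called higher (5.21% of all genes were), with a median of 0.38. In males 6 were called higher (6.31% of all genes) with a median of 0.82. In females 1 was (0.516% of all genes), with a median of -0.07. The median over both sexes was 0.03 with the tract sums as covariates and 0.25 in the 14 libraries. Beside C6, C2 had 28.5 to 87.7 CPM at 5 weeks (median 50.7) and 37.2 to 223 at 20 weeks (median 142) (1.23 ± 0.21 (SE), adjusted p = 7.5e-04). C4b had 166 to 825 CPM at 5 weeks (median 357) and 268 to 2436 at 20 weeks (median 1015) (1.46 ± 0.28 (SE), adjusted p = 0.0021). These 3 were called in both tract fits. Interferon-induced genes leaned the other way: 5 of 18 were called lower and 1 higher, against 5.02% and 5.21% of all genes. Of the 18, 17 had a change below 0. Isg15, a ubiquitin-like antiviral protein, had 3.99 to 15.6 CPM at 5 weeks (median 7.48) and 2.19 to 8.75 at 20 weeks (median 3.30) (-1.16 ± 0.23 (SE), adjusted p = 0.0023). Rtp4 changed by -0.68 and Ifit1 by -0.68, while Ifi27l2a rose by 1.10. The count of lower genes was 3 in the 14 libraries and 3 to 6 when single libraries were left out, with 3 without any 1 of female 20-week replicates 1 and 3, female 5-week replicates 2 and 6, male 20-week replicates 2 and 5 or male 5-week replicate 1.

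None of the 15 endothelial genes was called by edgeR or DESeq2 or had an unadjusted p under 0.05, with a median of -0.06, although 4 were called lower in the 14 libraries. Of 12 tip cell and angiogenic genes, Apln, Pgf (placental growth factor) and Cxcr4 were called lower (5.02% of all genes were), with a median of -0.44. The count was 5 with the covariates and 6 in the 14 libraries. The only young male of those 14, male 5-week replicate 5, had the highest summed endothelial and tip cell levels, 4974 and 1411 CPM. The other 23 libraries had at most 2831 and 899 CPM. Of 10 pericyte and smooth muscle genes 2 were called lower and 3 had a change above 0, with a median of -0.27 (-0.41 in males and 0.18 in females). Among them Cspg4 (NG2), a proteoglycan of pericytes, had 73.96 to 185 CPM at 5 weeks (median 109) and 33.4 to 85.3 at 20 weeks (median 52.7). Its male ages did not overlap, and the change was -1.02 ± 0.13 (SE), adjusted p = 3.4e-05, with estimates of -1.03 in males and -1.01 in females. Mesothelial markers were called higher in 8 of 14 (5.21% of all genes were), with a median of 0.86, among them Muc16 (1.85), Upk3b (1.22) and Msln (1.08). Only 1 of the 14 was called in each tract fit. The summed mesothelial level was 73.3 CPM in male 5-week replicate 5 and between 325 and 883 CPM in the other 23 libraries.

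Of the immediate early genes, induced within minutes of tissue handling or a stimulus, Fos, Fosb and Zfp36 of 16 were called higher (5.21% of all genes were). Fosb ranged from 1.91 to 51.01 CPM in older males and from 0.718 to 3.84 CPM in younger ones (2.13 ± 0.58 (SE), adjusted p = 0.02). In the tract fits edgeR called none of the 16, and 6 (with covariates) and 2 (14 libraries) had an unadjusted p under 0.05. Without female 20-week replicate 2 the main fit called 5. Of the 16 circadian clock genes tested edgeR called none, 1 had an unadjusted p under 0.05, and DESeq2 called 1.

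The age effect was compared between the sexes directly. Males had 1126 genes called higher and 931 lower, females 92 and 141, of which 50 higher and 77 lower were shared. The larger male counts were not kept with the tract sums as covariates. Males then had 207 genes higher and 140 lower. The female shares of all genes rose from 0.516% to 1.19% higher and from 0.79% to 2.77% lower. In that fit females had more genes called than males in each direction. Without female 20-week replicate 5 the female shares of all genes were 1.38% higher and 1.84% lower, and without female 5-week replicate 2 they were 0.174% and 0.23%. Male counts ran from 553 to 1345 higher and from 466 to 2182 lower when single males were left out, the last without male 20-week replicate 4. The test of the male minus the female change called 34 genes above 0 (0.191%) and 7 below (0.0392%). Leaving out male 20-week replicate 4 gave 103 and 340, and leaving out male 5-week replicate 3 gave 5 and 1. Grb14, an adaptor that inhibits the insulin receptor, had 5.32 to 9.58 CPM in young males and 15.2 to 44.1 CPM in older males. In females it had 3.41 to 16.6 CPM when young and 2.11 to 5.0 CPM when older. It thus rose in males (2.01) and fell in females (-1.42), a difference of 3.43 ± 0.45 (SE, adjusted p = 0.0016). The Wnt ligand Wnt11 also rose in males (1.65) and fell in females (-1.78), with a difference of 3.43 ± 0.62 (SE, adjusted p = 0.02).

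Nol3 rose in males (3.10) and did not pass in females (0.99), a difference of 2.11, and Igf2bp2, an RNA-binding protein, fell in females (-1.36) and did not pass in males (0.72), a difference of 2.09. On the opposite side, Spon1, a secreted matrix protein, had 75.97 to 158 CPM in young females and 169 to 643 CPM in older ones. In males it went from a median of 112 to 53.8 CPM, and the difference was -2.84 ± 0.41 (SE, adjusted p = 0.0028). Klhl23 (-2.09), the semaphorin Sema5b (-2.03) and Exoc3l4 (-1.42) fell in males, and their female changes did not pass. Their male minus female differences were -2.84, -2.25 and -1.65. Akr1cl had 0.652 to 31.3 CPM in older females and at most 0.133 CPM in younger ones, and male 5-week replicate 2 stood at 31.6 CPM, with the other 11 males at 1.39 CPM or less. Its difference was -9.85, with most young females at 0. In the same test with tract covariates Grb14, Wnt11, Spon1, Nol3 and Igf2bp2 were called again, and Klhl23, Sema5b, Exoc3l4 and Akr1cl were not (adjusted p = 0.15 for Klhl23).

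TH mice on chow, an inbred strain prone to obesity and diabetes, gave the most similar comparison, with 24 libraries over the same ages. Their age effect called 1588 genes higher (8.5%) and 1261 lower (6.75%) of 18685 tested in the 48 libraries. The test of the B6 minus the TH change called 78 genes above 0 (0.417%) and 144 below (0.771%). In TH, 10 of the 32 cell division genes and 9 of the 24 cholesterol genes were called lower, with medians of -0.72 and -0.38, and edgeR and DESeq2 called no member of either list in the test between strains. At an unadjusted p under 0.05, 17 of the 32 cell division genes and 3 of the 24 cholesterol genes had the larger fall in B6. Eln changed by -2.23 in TH, Cspg4 by -1.07 and Sfrp5 by 2.97, each called, and the strain test called none of the 3 (adjusted p = 0.98, 0.98 and 0.81).

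The named genes with the larger change in B6 were C6, Kcnj15, Prr32 and Rprml. C6 changed by 0.23 in TH (adjusted p = 0.61), and the B6 minus TH difference was 2.50 ± 0.38 (SE, adjusted p = 1.8e-04). Kcnj15 changed by 0.16 in TH, with a difference of 2.61 (adjusted p = 6.3e-04). Prr32 rose in TH too, by 2.16, and differed by 2.53 (adjusted p = 0.0049). Rprml differed by 2.42 (adjusted p = 0.0065). On the other side stood Mup1, Mup11, Mup12 and Mup15, major urinary protein genes that carry lipophilic signals in urine. Mup1 rose by 3.21 in TH, and the difference was -4.07 (adjusted p = 0.0035). These genes are near-identical copies, so reads may be split among them and their single values are uncertain.

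**Figure D5:**
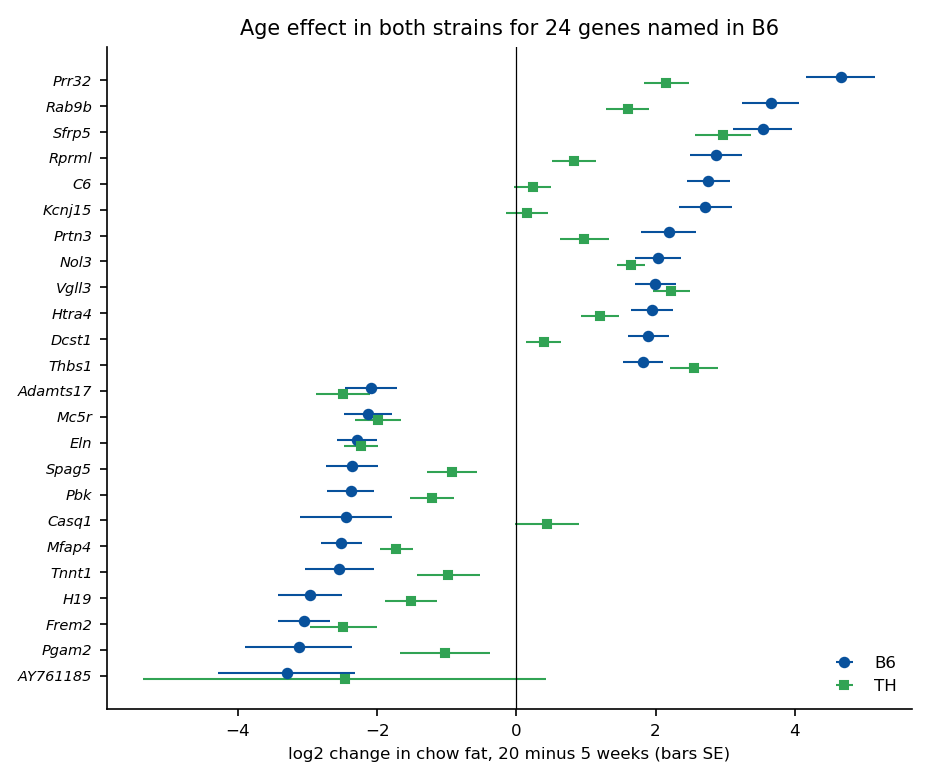
Log2 change from 5 to 20 weeks in chow fat of the 24 genes with the largest changes called in all 4 B6 fits, in B6 (circles) and TH (squares), with SE bars. C6 and Kcnj15 rise in B6 and lie near 0 in TH, whereas Sfrp5, Vgll3, Eln, Mc5r and Adamts17 have like values in both strains.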

How the data were processed

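Poly(A) RNA was sequenced from stranded libraries. Per the submitters' processing notes, reads were trimmed with Trimmomatic 0.39 and aligned with HISAT2 2.2.1 to GRCm39. Neither the counting tool nor the annotation is named in the labels. The authors deposited raw counts per gene, 56980 identifiers, of which 52073 carry a symbol. Here edgeR 4.0.16 (R 4.3.3) was run on those counts with TMM factors, filterByExpr (minimum count 10) and the quasi-likelihood F test, with sex and age as terms over 24 libraries. Separate ages by sex used 4 group means, and the strain comparison used 8 group means over 48 chow libraries. Standard errors were taken from the change and its F value. DESeq2 1.42.0 was an alternative.

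The gene lists were chosen with earlier results of these data known. Named genes were the largest changes by a fixed rule (mean log2 CPM of at least 1, same sign in both sexes, called without male 20-week replicate 4, no predicted or receptor segment names), 12 per direction. The same was then asked of genes called in all 4 fits, a condition set after their values were seen. Members of lists were chosen by adjusted p, with others where needed. Some genes named by these rules are not reported here. Replicate numbers did not pair the mice: same-numbered libraries of the 2 ages had deviations correlated between -0.58 and 0.49. No 2 replicates agreed within sampling noise.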

Additional observations from a re-analysis of the deposited data

Results flagged for a closer look

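Within groups of 6, 45 of 156 tests found a library far from the other 5. The tests covered the genes named for the largest age changes. Chance gives about 1 in 20 for independent tests. These genes were chosen from the same data and are not independent, so that share is no yardstick here. Many of the 45 concern epididymal genes. Some of these were in female 20-week replicate 2 and male 20-week replicate 6, which were among the 14 libraries without tract markers. In male 20-week replicate 4 these were Spink11 (4.02 CPM), Defb30 (2.28 CPM), Defb20 (6.92 CPM), Spink5 (5.95 CPM), Tspan1 (0.623 CPM), Spint5 (3.32 CPM) and AY761185 (20.5 CPM), with Tnnt1 at 2.56 CPM. In female 5-week replicate 6 they were Spag11b (10.9 CPM), Muc5b (3.77 CPM), Lcn5 (5.41 CPM), Epp13 (0.983 CPM), Spink11 (1.43 CPM), Slc38a5 (5.57 CPM), Defb30 (0.861 CPM), Defb20 (4.59 CPM), Spink5 (0.615 CPM), Spint5 (0.246 CPM) and AY761185 (0.451 CPM). Female 20-week replicate 2 had Spag11b at 1.14 CPM, Lcn5 at 0.571 CPM, Spink11 at 0.0815 CPM, Defb30 at 0.244 CPM and Defb20 at 0.734 CPM. Male 5-week replicate 4 had Adam28 at 1076 CPM and Defb20 at 533 CPM, male 20-week replicate 6 had Spag11b at 1.91 CPM and Adam28 at 1.21 CPM, and female 20-week replicate 5 had Tspan1 at 1.93 CPM.

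Female 20-week replicate 4 stood above its group for Thbs1 (1009 CPM), Nnat (892 CPM), Htra4 (27.9 CPM) and Prtn3 (24.6 CPM). Male 5-week replicate 5, the young male with the least epididymal and mesothelial RNA, had Eln at 2320.0 CPM and Thbs1 at 125 CPM. Male 5-week replicate 2 stood apart for Pbk (11.3 CPM), Spag5 (22.5 CPM) and Pgam2 (46.9 CPM), and its testis germ cell list summed to 440.6 CPM, against 35.6 CPM in male 20-week replicate 4 and 12.5 CPM or less in the other 22 libraries. Single values were Rprml at 3.34 CPM in female 20-week replicate 2, Fosb at 4.93 CPM in female 5-week replicate 3 and 11.6 CPM in female 20-week replicate 3, Pgam2 at 3.54 CPM in female 20-week replicate 1, H19 at 4.86 CPM in male 20-week replicate 6, Casq1 at 5.25 CPM in male 20-week replicate 1 and Adamts17 at 3.60 CPM in female 20-week replicate 5.

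The edgeR test of the male minus the female change was passed by Wnt11 (3.43), Grb14 (3.43), Nol3 (2.11) and Igf2bp2 (2.09), and by Akr1cl (-9.85), Spon1 (-2.84), Klhl23 (-2.84), Sema5b (-2.25) and Exoc3l4 (-1.65). The B6 minus TH change passed for Kcnj15 (2.61), Prr32 (2.53), C6 (2.50) and Rprml (2.42), and for Mup1 (-4.07), Mup12 (-3.78), Mup11 (-3.72) and Mup15 (-3.64). With the tract sums as covariates in the strain fit, C6, Kcnj15, Prr32 and Rprml were called again.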

How the results depend on the processing

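Of the 1825 genes called for age, 24 had the opposite sign in the 14 libraries and 0 with the tract sums as covariates. Of the called genes that are named here, Bub1b was the 1 that changed sign in an alternative, to 0.027 in the 14 libraries. Of the named genes that were not called, Fdft1 changed sign with the tract sums as covariates (0.020) and in the 14 libraries (0.086), as did Scd1 (-0.30 and -0.54) and Igf1 (near 0 and -0.40), and Lep did in the 14 libraries (-0.043). Counts that moved by over 1.5 times follow. Counts in females are given as percent of the 17838 genes tested, for every setting (0.516% higher and 0.79% lower as reported). With DESeq2, 1.38% were higher and 2.09% lower in females, sex by age had 139 and 78 genes, and strain by age 159 and 282. The GC slope gave 127 above 0 for strain by age, and RLE factors gave 18 for sex by age. With all 96 fat libraries there were 1466 genes lower for age, 0.987% and 1.7% in females, 1590 lower in males and 35 below 0 for sex by age; members called were 5 adipokines, 2 of collagen processing, 7 epididymal, 6 immediate early and 5 thermogenic. Without the low-count filter, females had 0.258% and 0.381%, sex by age 10 and strain by age 46 and 95, with 1 adipokine, 2 lipogenic and 9 epididymal genes. With the tract sums as covariates, 434 genes were higher for age, 1.19% and 2.77% moved in females, 207 and 140 in males, 22 for sex by age and 159 and 484 for strain by age. Members called there were 1 of MHC class II, 0 adipokines, 9 of basement membrane, 10 lipogenic, 7 elastic fibre, 0 epididymal, 0 immediate early, 0 lipolysis, 1 mesothelial and 5 angiogenic. In the 14 libraries 504 genes were higher, and members called were 0 B cell, 1 of MHC class II, 0 adipokines, 6 of basement membrane, 9 of cell division, 1 lipogenic, 0 epididymal, 0 of the IGF axis (lower), 0 immediate early, 3 interferon, 1 lipolysis, 1 mesothelial and 6 angiogenic.

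With the replicate block the counts were 615 higher and 689 lower, with 5 B cell, 5 epididymal and 0 lipolysis genes; the numbers did not pair the mice. Leaving out 1 library gave 657 to 1496 higher and 669 to 1685 lower for age, 553 to 1345 and 466 to 2182 in males, 0.174% to 1.38% and 0.23% to 1.84% in females, and 5 to 103 and 1 to 340 for sex by age. The highest counts came without female 20-week replicate 5 (age, females) or male 20-week replicate 4 (males lower, sex by age). List counts ran 7 to 10 for B cell, 6 to 7 for MHC class II, 1 to 4 for adipocyte progenitor, 0 to 6 for adipokines, 3 to 4 for basement membrane, 29 to 30 for cell division, 9 to 17 for cholesterol, 2 to 4 for collagen processing, 3 to 4 for complement, 1 to 5 for lipogenesis, 4 to 6 for elastic fibre, 2 to 7 for epididymis, 5 to 10 for collagens, 3 to 4 for the IGF axis, 2 to 5 for immediate early, 6 to 7 for imprinted, 3 to 6 for interferon, 2 to 3 for lipolysis, 7 to 9 for mesothelium, 3 to 5 for thermogenic and 2 to 3 for angiogenic. Of the single genes named, Dcn kept its call in 15 of those 24 fits, AY761185 in 16, Pgam2 in 23, Rbp4 in 21, Rarres2 in 13, Gpd1 in 20, Gpnmb in 22, Fos in 14 and Cxcr4 in 23. The cause of these changes was not tested. The 14 libraries hold 1 young male, so that fit rests mainly on females at 5 weeks. With 5939582 to 22172450 reads per library, small changes in genes of a few counts could be missed.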
